A study of Gallus gallus with 50 samples.

Results

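The GFP-negative cells of the chicken embryo head were compared between Hamburger-Hamilton (HH) stage 14 and HH stage 12, stages of the standard morphological series of chick development. The members are the libraries that the labels put in the group WE_14 or WE_12 and that the authors kept in their filtered count table. There are 7 of them among the 42 kept libraries, 3 from HH14 and 4 from HH12, and the full table holds 50 libraries. At HH14 all 3 deposited libraries were kept, and at HH12 4 of 5. All embryos, of both stages and both sorted populations, had been electroporated whole with the reporter plasmid ptk-TFAP2AE1-GFP, in which an enhancer of TFAP2A, a transcription factor gene of the neural crest, drives green fluorescent protein. They were then cultured outside the egg at 37C, the cranial parts of about 20 heads were pooled for each sort, and polyadenylated RNA was sequenced. No strain, genotype or other agent is given in the labels. GFP-positive cells from such pools, labelled neural crest, form the groups NC_14 and NC_12. All 3 kept HH14 pools and 3 of the HH12 pools have a kept library of both populations. The GFP-positive libraries are used only where the populations are set side by side.

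The GFP-negative fraction is a mixture defined by what it lacks. It holds every cell without an active reporter, and a crest cell that took up no plasmid would be sorted into it too. In background terms the head at these stages consists of the brain vesicles and the optic and otic rudiments, surface ectoderm, cranial mesoderm, pharyngeal endoderm, blood vessels and circulating blood cells. Between these stages the optic vesicles turn into cups, the otic placodes sink in and the first pharyngeal arches fill out, while blood flow through the embryo becomes established. The label could not be checked against marker genes, since the files name genes by Ensembl identifiers that they do not pair with symbols, and none of the 24356 identifiers matched the reference gene table. For the same reason no pathway or cell type list was counted, and the genes below carry an identifier and a position but no name or role.

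No gene passed the test between HH14 and HH12 in GFP-negative head cells. Of 15737 genes tested with the quasi-likelihood test of edgeR, 0 (0%) had a Benjamini-Hochberg adjusted p under 0.05, and the lowest adjusted p was 1. At an unadjusted p under 0.05 there were 253 genes, 1.61% of those tested, of which 174 were higher and 79 lower at HH14. Evenly spread p-values, with no change at all, would put a share of 0.05 there, so this count is no sign of change. The lower share found means that the p-values were not evenly spread, so the count is no sign of an absence of change either. DESeq2 also gave 0 genes (299 at an unadjusted p under 0.05, lowest adjusted p = 0.438) and so did limma voom (241). In one fit with the other stages the same population gave 0 genes (0%) for HH12 over HH10, with 1170 at an unadjusted p under 0.05, and 153 genes (0.972%) for HH16 over HH14, 7 higher and 146 lower at HH16. These neighbouring steps share libraries with the comparison made here. Across the longer span of HH16 over HH10, which shares none, 770 genes (4.89%) passed, 279 higher and 491 lower.

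The estimates set bounds on the difference between the HH14 and HH12 libraries for most abundant genes. The fit had no term for the sequencing set, the first number of the library names, over which the stages were spread unevenly. These bounds therefore do not isolate stage from set. Among the 9628 genes with a mean of at least 10 CPM (counted reads relative to the scaled library total) in the higher stage, the median log2 fold change of HH14 over HH12 was -0.01, and the 5th and 95th percentiles were -0.46 and 0.62. For 6008 of them, 62.4%, the whole 95% confidence interval lay within a 2-fold change either way. Precision fell with the level, and the median standard error was 0.24 on the log2 scale for the 2395 genes at 100 CPM or more, 0.34 for the 7233 genes from 10 to 100 CPM and 0.83 for the 3789 genes from 1 to 10 CPM. Counted reads per library were 9816243 to 29316689, and 12921 to 14725 genes had at least 10 reads. In bulk libraries of sorted cells, fewer cells of a type and less RNA per cell cannot be told apart.

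The 4 genes described next had the lowest unadjusted p-values in each direction, 2 higher and 2 lower, and none of them passed the test. ENSGALG00000039452 lies on the minus strand of chromosome 1 of GRCg6a, from 93831630 to 93850776. Its level was 38.6, 41.6 and 39.2 CPM in the HH14 libraries, against 4.86, 4.33, 10.0 and 9.01 CPM in the HH12 libraries. The 3 HH14 values lay close together and all above the highest HH12 value, and the means were 39.8 ± 1.599 CPM at HH14 (SD, n = 3) and 7.05 ± 2.88 CPM at HH12 (SD, n = 4). Its log2 fold change was 2.49 ± 0.68 (SE; 95% confidence interval 1.11 to 3.87), with an unadjusted p of 0.000801 and an edgeR adjusted p of 1. ENSGALG00000041161, on the plus strand of chromosome 22 from 5154950 to 5165163, had 12.7, 43.9 and 5.59 CPM at HH14, against 3.40, 4.33, 4.50 and 4.31 CPM at HH12. The groups did not overlap, but HH14 replicate 3 stood just above the HH12 libraries while HH14 replicate 2 was far above the rest. The log2 fold change was 2.32 ± 0.64 with all libraries, and 1.14 without HH14 replicate 2.

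ENSGALG00000036915, on the plus strand of chromosome 2 from 138683095 to 138697225, had 147, 71.8 and 106 CPM at HH14, against 280, 242, 226 and 153 CPM at HH12. Its highest HH14 library was only slightly below its lowest HH12 library, HH12 replicate 5. Here the log2 fold change was -1.05 ± 0.26 (95% confidence interval -1.58 to -0.53), and the unadjusted p of 0.000231 was the lowest of all genes tested, with an edgeR adjusted p of 1. ENSGALG00000009560, on the plus strand of chromosome 4 from 23878783 to 23885142, had 87.1, 65.1 and 69.8 CPM at HH14, against 261, 188, 175 and 93.6 CPM at HH12. The HH14 libraries were again closest to HH12 replicate 5, and the log2 fold change was -1.28 ± 0.32. In the HH12 library that the authors left out (replicate 4, 15340952 reads) the 4 genes stood at 4.95, 4.24, 185 and 137 CPM in the order given, on unscaled library size, each on the HH12 side of the HH14 values. With all 50 libraries in the fit, that one included, 0 genes passed and 142 had an unadjusted p under 0.05.

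**Figure D1:**
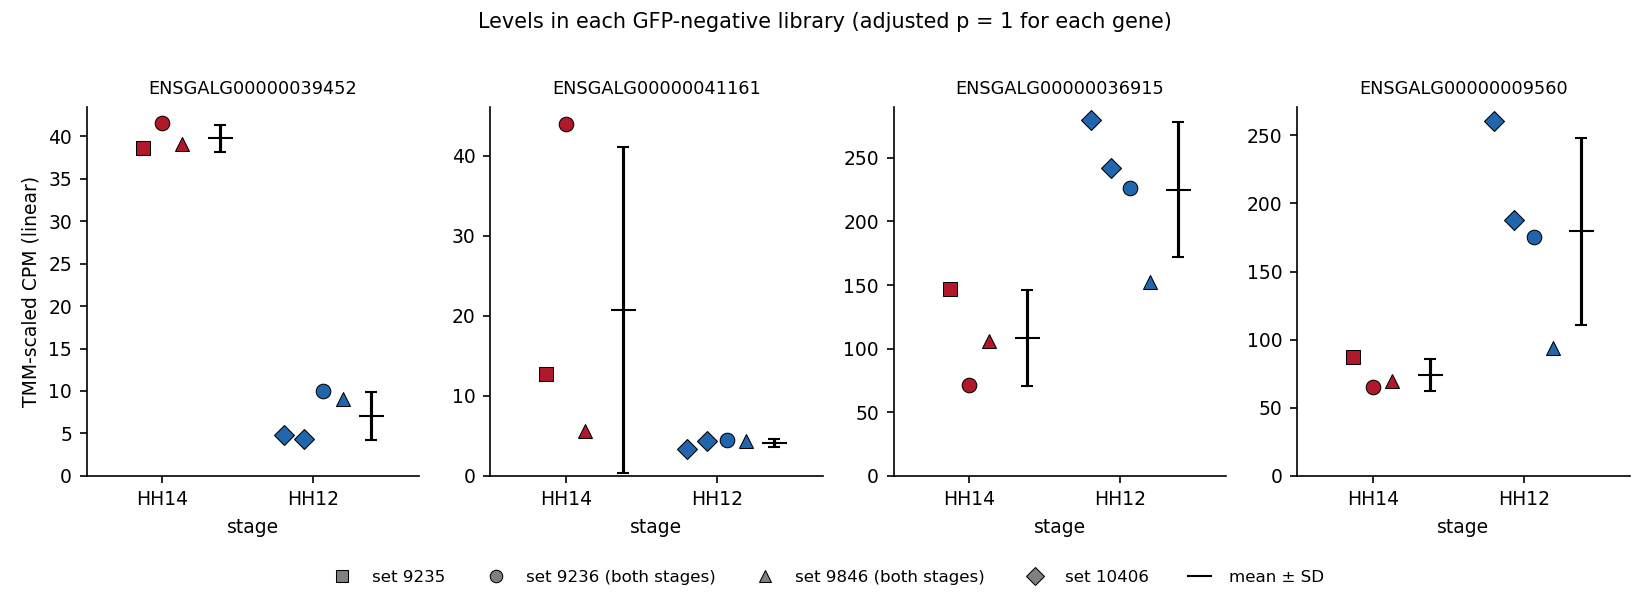
CPM on TMM-scaled library sizes (linear axes from 0) of the 4 genes in each GFP-negative library, HH14 left and HH12 right; marker shapes give the sequencing set, named here by the first number of the library names, and black bars the mean ± SD (n = 3 and n = 4). ENSGALG00000039452 has 3 HH14 libraries between 38.6 and 41.6 CPM, all above the HH12 libraries, whereas ENSGALG00000041161 is high mainly in HH14 replicate 2.

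Across the stages the mean of ENSGALG00000039452 in GFP-negative cells was higher at each stage than at the one before up to HH14, and lower at HH16 than at HH14. The group means were 0.0201 CPM at HH6, 0.518 at HH8, 4.79 at HH10, 7.05 at HH12, 39.8 at HH14 and 29.6 at HH16, where the 5 libraries spread from 3.18 to 57.2 CPM. Between HH16 and HH10, groups outside the contrast that chose the gene although their libraries shared its estimate of spread, its log2 fold change was 2.64 (edgeR adjusted p = 0.0261), and this call was lost without WE_16 replicate 2 (0.0586) or 3 (0.0781) and without WE_10 replicate 3 (0.101) or 4 (0.0999). ENSGALG00000036915 averaged 158 CPM at HH10, 225 at HH12, 108 at HH14 and 81.4 at HH16. It fell between HH10 and HH16, with a log2 fold change of -0.95 (edgeR adjusted p = 0.0126; 0.0502 without WE_10 replicate 2). ENSGALG00000009560 averaged 144 CPM at HH10, 179 at HH12, 74.0 at HH14 and 44.1 at HH16. Its fall between HH10 and HH16 was -1.71 on the log2 scale (edgeR adjusted p = 0.000344), and it passed the test without any 1 of the 8 libraries concerned. ENSGALG00000041161 did not pass in that span with all libraries (log2 fold change 2.01, edgeR adjusted p = 0.0682). With 1 library left out, it passed in edgeR only without WE_16 replicate 3 (0.0344) or 4 (0.0467) or WE_10 replicate 4 (0.0422). Its log2 fold change was 0.61 without WE_16 replicate 1, which held 103 CPM.

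In GFP-positive cells ENSGALG00000039452 stayed near 1 CPM, with 0.685, 1.74 and 0.614 CPM at HH14 and a mean of 1.15 ± 0.31 CPM at HH12 (SD, n = 4). The difference between its changes in the populations was 2.68 on the log2 scale, with an unadjusted p of 0.0122 and an edgeR adjusted p of 1. The genes that were lower at HH14 had similar levels in both populations. ENSGALG00000036915 averaged 140 ± 24.1 CPM at HH14 (n = 3) and 214 ± 53.2 CPM at HH12 (n = 4) in GFP-positive cells. ENSGALG00000009560 averaged 98.6 ± 50.3 CPM at HH14 and 179 ± 66.9 CPM at HH12 there. For both genes the highest GFP-positive HH12 values were in replicates 1 and 2, of set 10406, which has no HH14 library. From HH12 to HH14, ENSGALG00000036915 went from 149 to 166 CPM in set 9235 and from 205 to 138 CPM in set 9236. ENSGALG00000009560 went from 107 to 96.8 CPM and from 164 to 150 CPM in these sets. Across all 15737 genes, the change in GFP-negative cells differed from the change in GFP-positive cells for 0 genes (0%) at an adjusted p under 0.05 in edgeR, with 99 genes at an unadjusted p under 0.05. DESeq2 also called 0 and had 102 genes at that unadjusted p. GFP-positive cells alone gave 0 genes (0%) for HH14 over HH12, with 480 at an unadjusted p under 0.05.

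**Figure D2:**
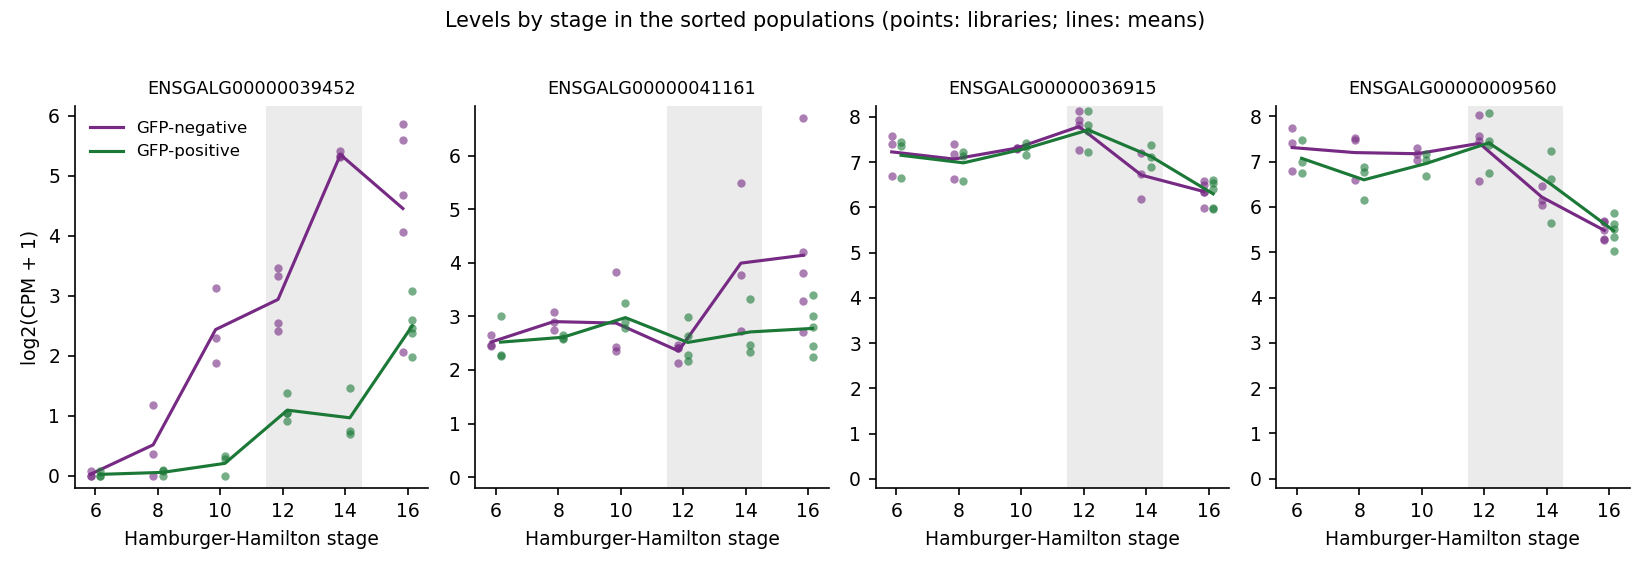
Levels as log2(CPM + 1) of the 4 genes by HH stage in GFP-negative (purple) and GFP-positive (green) libraries; points are libraries, lines join group means and grey marks HH12 and HH14. ENSGALG00000039452 is near 0 in GFP-positive cells up to HH10 and near 1 at HH12 and HH14. The group means of the 2 genes that are lower at HH14 run a similar course in both populations, which largely share pools and sets.

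Among genes of at least 10 CPM, 119 (1.24%) had a fitted level at least 2-fold higher at HH14 and 33 (0.343%) at least 2-fold lower. Of the 119, 14 (11.8%) had no overlap between the stages, and of the 33 lower genes 7 (21.2%). Among all 9628 genes 154 did not overlap in the higher direction (1.6%) and 208 in the lower one (2.16%), and a large fitted difference makes such a gap more likely. A random order of so few libraries would leave such gaps in no smaller a share of all genes. It takes the libraries as interchangeable, however, and these were divided by sequencing set, as described below. HH14 replicate 2 held the highest HH14 value for 73 of the 119, replicate 1 for 41 and replicate 3 for 5. Without HH14 replicate 2, 50 of the 119 were still at least 2-fold higher by the ratio of means. This number was 61 without HH12 replicate 2, 73 without HH12 replicate 1 and 76 to 118 without any other library. For the 33 lower genes, the highest HH12 value was in replicate 1 for 15, in replicate 2 for 15, in replicate 3 for 1 and in replicate 5 for 2.

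The 14 genes that were at least 2-fold higher without overlap averaged 10.3 to 48.5 CPM at HH14 and 3.60 to 20.5 CPM at HH12, with log2 fold changes of 1.01 to 2.68, and they lay on 11 chromosomes. The 7 lower genes averaged 10.0 to 108 CPM at HH14 and 25.4 to 225 CPM at HH12, with log2 fold changes of -1.48 to -1.03. In the GFP-positive libraries the estimate had the same sign for 12 of the 14 and 6 of the 7. Of all 9628 genes, 50.3% had a higher estimate in those libraries. They come largely from the same pools and sets, so that shared change with stage and shared pool or set cannot be told apart. Between HH16 and HH10, in libraries not used here, the estimate had the same sign for 11 of the 14 and 6 of the 7. That span had a higher estimate for 54.3% of the 9628 genes. There 1 of the 14 passed the test as higher and 5 of the 7 as lower, beside 180 (1.87%) and 317 (3.29%) of the 9628. The libraries of HH10 and HH16 share their sequencing sets only in part, as given below, and these estimates do not separate stage from set.

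HH14 replicate 2 stood apart in a small group of genes, looked for after its high values had been seen. In 25 genes, 0.243% of the 10279 genes whose highest library reached 10 CPM, this library was at least 4-fold above every other one of the 7. The same count was 4 for HH14 replicate 1 and 0 for each of the other 5 libraries. Some of these genes were neighbours. On chromosome 1, 3 consecutive tested genes between 197275578 and 197289402 summed to 100, 8035 and 297 CPM in the HH14 libraries, against 0, 12.99, 195 and 364 CPM in the HH12 libraries. On chromosome 14, 3 consecutive tested genes between 12503627 and 12511196 summed to 126, 12305 and 403 CPM at HH14, against 2.14, 14.2, 176 and 507 CPM at HH12. In both neighbourhoods the HH14 and HH12 libraries overlapped, and HH12 replicate 5 was above HH14 replicates 1 and 3. A weaker neighbourhood, 2 genes of chromosome Z between 57563915 and 57613816, summed to 1.24, 47.95 and 4.99 CPM at HH14, against 1.75, 3.50, 0.272 and 3.76 CPM at HH12.

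The fitted log2 fold changes of HH14 over HH12 were 4.28 to 4.68 for the genes of the chromosome 1 neighbourhood and 4.54 to 4.76 for those of chromosome 14, with unadjusted p-values of 0.00902 to 0.0178 in both together and edgeR adjusted p-values of 1. As a ratio of mean summed CPM, the log2 change was 4.30 on chromosome 1 and 4.61 on chromosome 14, but 0.47 and 0.60 without HH14 replicate 2. The GFP-positive library of the same pool was high as well, with 1436 and 1949 CPM, against 16.1 and 8.89 CPM on chromosome 1 and 17.4 and 13.8 CPM on chromosome 14 in the other two GFP-positive HH14 libraries. By stage, the GFP-negative medians of the chromosome 14 sum were 7.68 CPM at HH10, 95.1 at HH12, 403 at HH14 and 1310 at HH16, where the 5 libraries ranged from 602 to 18873 CPM. Whether the libraries differ in the share of one cell type that carries these RNAs was not tested.

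**Figure D3:**
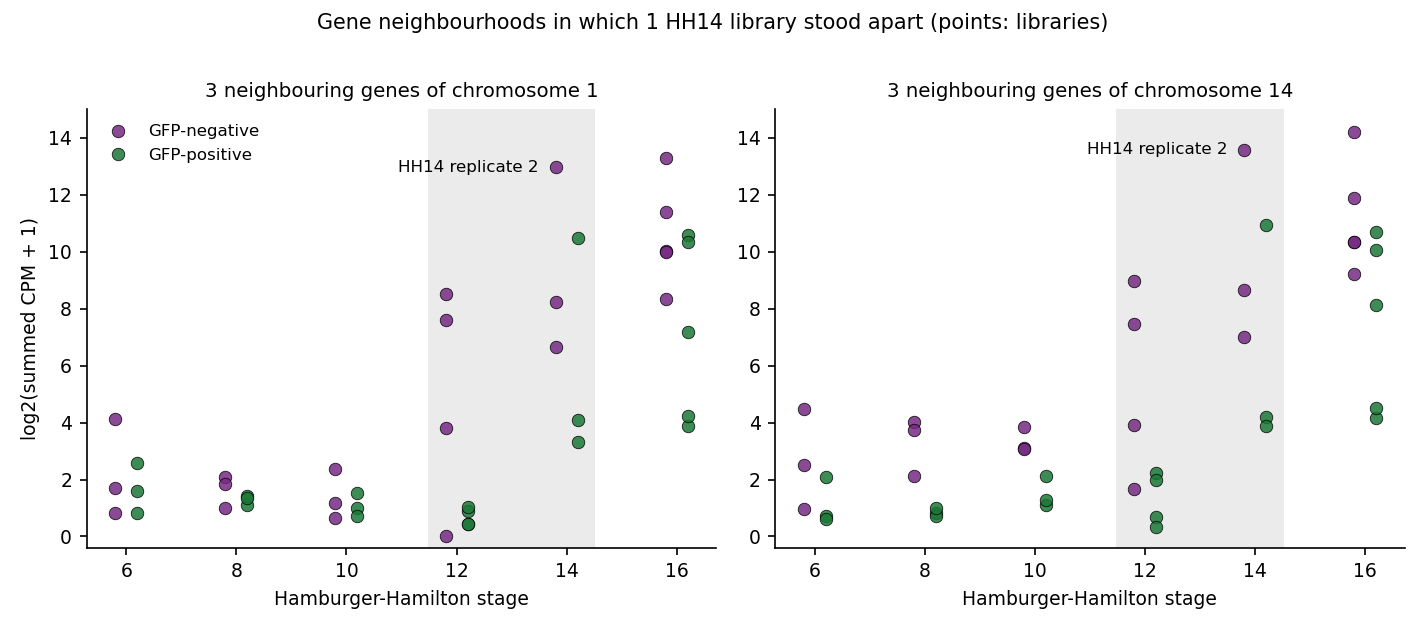
Summed levels, as log2(summed CPM + 1), of the 3 neighbouring genes of chromosome 1 (left) and the 3 of chromosome 14 (right) by HH stage, 1 point per library, GFP-negative in purple and GFP-positive in green. HH14 replicate 2 (8035 and 12305 CPM) lies far above the other GFP-negative libraries of HH14 and HH12, and 1 HH16 library reached 10102 and 18873 CPM.

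The 7 libraries did not sort by stage. Across genes, the Pearson correlation of log2(CPM + 1) between libraries was 0.934 to 0.992 (median 0.963) in the 9 pairs of the same stage and 0.947 to 0.991 (median 0.964) in the 12 pairs of different stages. For HH14 replicate 3 the closest library was HH12 replicate 5, at 0.991, and for HH12 replicate 3 it was HH14 replicate 1, at 0.978. The first principal component held 62.1% of the variance and put HH14 replicates 1 and 2 with HH12 replicate 3, and HH14 replicate 3 with HH12 replicates 1, 2 and 5. That division matches the first number of the library names. Libraries that share this number are called a sequencing set here, but the labels do not say what it stands for. The 3 libraries on one side came from sets 9235 and 9236, whose names also share their second number, and the 4 on the other from sets 9846 and 10406. Set 9236 holds HH14 replicate 2 and HH12 replicate 3, and set 9846 holds HH14 replicate 3 and HH12 replicate 5, so that both stages meet in these 2 sets. HH14 replicate 1 and HH12 replicates 1 and 2 have no library of the other stage in their set.

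**Figure D4:**
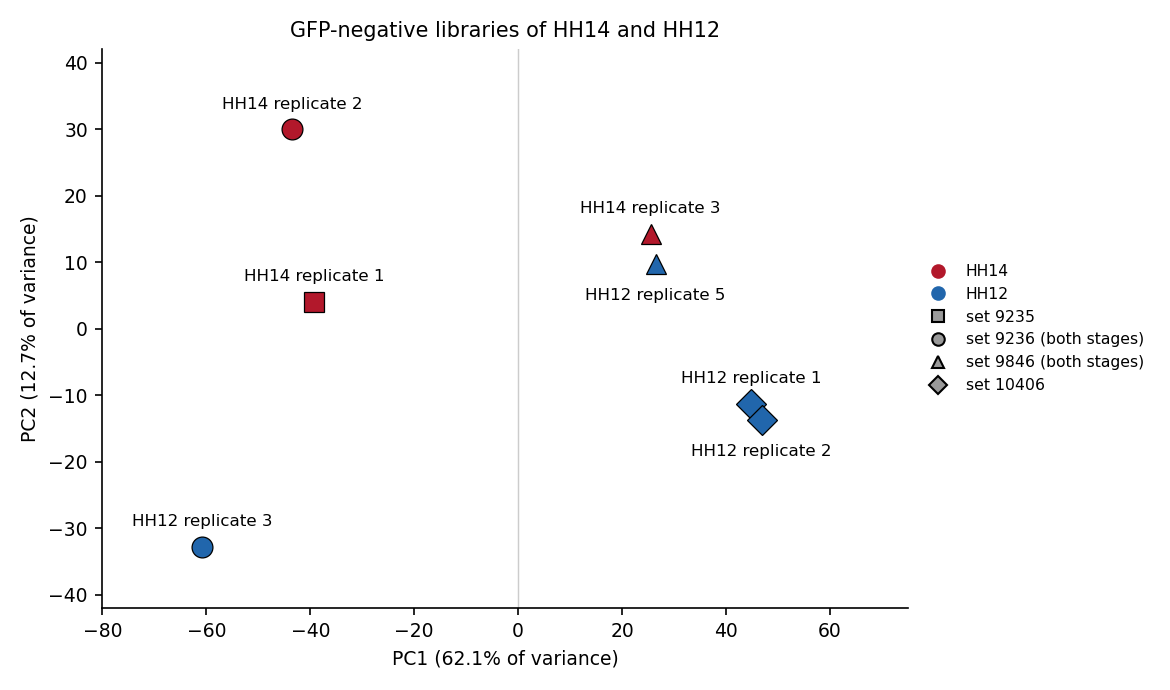
First and second principal components of log2(CPM + 1) over the 7 GFP-negative libraries, HH14 in red and HH12 in blue, with a marker shape for each sequencing set. The first component, 62.1% of the variance, separates sets 9235 and 9236 from sets 9846 and 10406 and mixes the stages on both sides.

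Within the 2 sets that hold both stages, the genes that differed were mostly not shared. In set 9236, HH14 replicate 2 was at least 2-fold above HH12 replicate 3 on the log2(CPM + 1) scale for 211 genes (2.19% of the 9628) and at least 2-fold below it for 109 (1.13%). In set 9846, HH14 replicate 3 was at least 2-fold above HH12 replicate 5 for 71 genes (0.737%) and below it for 67 (0.696%). Both sets held 5 of the higher genes, 2.37% of the 211 and 7.04% of the 71, and 15 of the lower ones, 13.8% of the 109 and 22.4% of the 67. These shares exceeded those over all 9628 genes, most of all for the lower genes. The 18 chromosome W genes of at least 10 CPM had median differences of -1.22 and -1.32 in these sets. How many of the 15 were chromosome W genes was not counted. The changes in the 2 sets had the same sign for 51.3% of genes. Their correlation across genes was 0.01 (Pearson) and 0.05 (Spearman), given as a description, since genes are not independent replicates and each set has 1 library a stage. ENSGALG00000039452 had differences of 1.95 and 2.00 in sets 9236 and 9846. For ENSGALG00000041161 they were 3.03 and 0.31, for ENSGALG00000036915 -1.64 and -0.52, and for ENSGALG00000009560 -1.41 and -0.42. With the 4 libraries of these sets alone and the set as a term in edgeR, 0 of 14267 genes passed, 532 had an unadjusted p under 0.05, and the lowest adjusted p was 0.230, that of ENSGALG00000039452. With 1 library a stage in each set, this fit had little from which to estimate the spread, so its lack of calls says little.

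**Figure D5:**
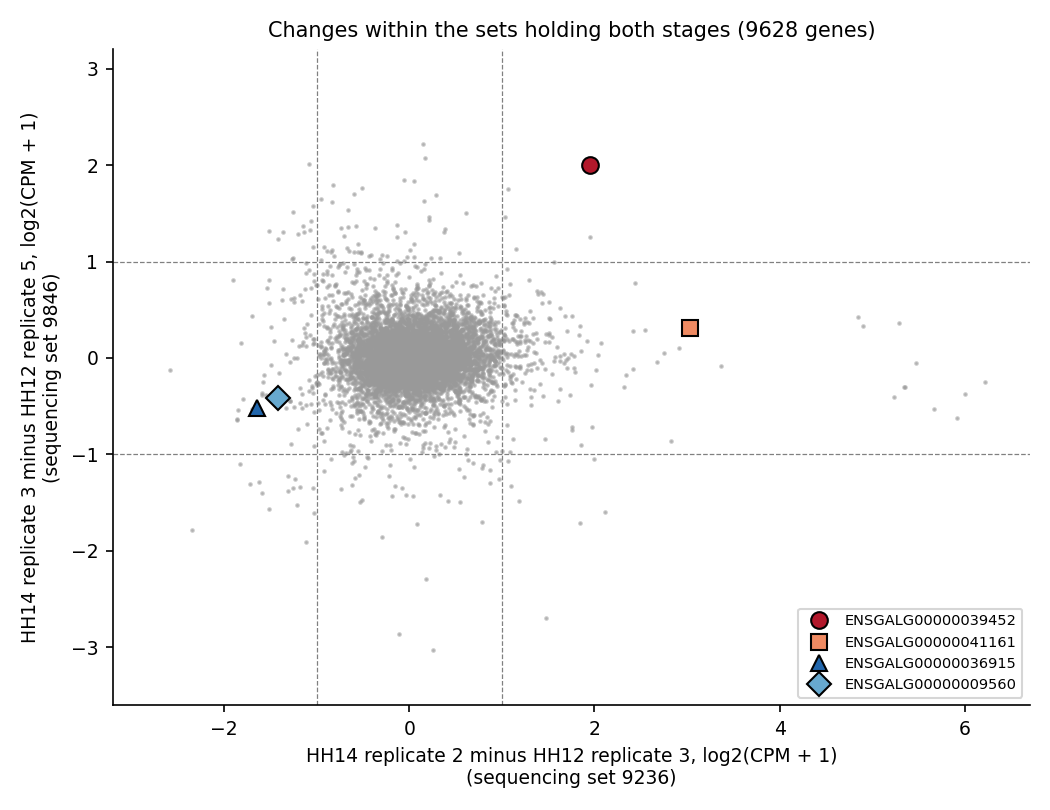
Difference in log2(CPM + 1) of HH14 minus HH12 within set 9236 (x axis) and within set 9846 (y axis) for 9628 genes, with dashed lines at 2-fold. The cloud shows no slope, ENSGALG00000039452 is near 2 on both axes, and the points beyond 4 on the x axis lie near 0 on the y axis.

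Genes whose libraries did not overlap between the stages were 433 higher at HH14 (2.75%) and 299 lower (1.9%). With so few libraries, a random order alone would leave no overlap in a share of genes no smaller than these in each direction. A random order takes the libraries as interchangeable, whereas both stages were divided by sequencing set on the first principal component. These totals by themselves are therefore a sign neither of a difference between the stages nor of its absence. The split of these genes turned with the level. From 1 to 10 CPM, 192 were higher and 59 lower (5.07% and 1.56% of 3789 genes). At 100 CPM or more, 5 were higher and 73 lower (0.209% and 3.05% of 2395 genes). The median log2 fold change of all genes at these levels turned the same way, from 0.18 to -0.06. At 10 CPM or more there were 154 higher genes, with a median log2 fold change of 0.48, and 208 lower ones, with a median of -0.31. Leaving a library out removes overlaps and hardly ever adds one, so these counts were bound to rise. By how much was not fixed, and the rise was not set against the share that a random order of fewer libraries would leave. The counts rose most without HH12 replicate 3, to 1135 higher and 1461 lower genes, and without HH14 replicate 3, to 933 and 750. On the first principal component each of these libraries lay on the other side from the rest of its stage. With any other of the 7 libraries left out, 183 to 300 were higher and 240 to 409 lower, and the cause was not tested.

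The same genes were followed into libraries that had not selected them. Of the 154 higher genes, 123 (79.9%) had a higher estimate at HH14 in GFP-positive cells, and of the 208 lower genes 26 (12.5%) did, beside 50.3% of all 9628 genes. The GFP-positive libraries come largely from the same pools and sets, so that shared change with stage and shared pool or set cannot be told apart there. Between HH16 and HH10, in other GFP-negative libraries, 68.2% of the 154 and 44.2% of the 208 had a higher estimate, beside 54.3% of all. No HH10 library of this population came from sets 9235 or 9236, whereas HH16 had a library in each. The only set with GFP-negative libraries of both stages was 9846, which held HH10 replicates 3 and 4 and HH16 replicates 4 and 5. The estimates were not limited to that set, so they cannot tell stage and set apart either.

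In the other direction, the 279 genes that rose and the 491 that fell between HH10 and HH16 were read in the HH14 and HH12 libraries. Of the 279, 186 (66.7%) had a higher estimate at HH14 than at HH12, with a median log2 fold change of 0.19. Of the 491, 284 (57.8%) did, with a median of 0.09, beside 53.7% and 0.04 for all tested genes. The later fall of the 491 was thus not visible between HH12 and HH14: the median of their mean log2(CPM + 1) was 4.85 at HH10, 4.03 at HH12, 4.24 at HH14 and 2.47 at HH16. For the 279 the same levels were 3.28, 4.05, 4.30 and 4.80. Within sets 9236 and 9846 the median differences of the members at 10 CPM or more were 0.26 and -0.10 for the rising genes and -0.42 and 0.08 for the falling genes, so that both lists took opposite signs in the 2 sets. The lists themselves depended on WE_10 replicate 2, without which 81 genes rose and 290 fell.

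Chromosome classes moved with the sets too. The 1022 genes of at least 10 CPM on the small chromosomes 25 to 33 had a median log2 fold change of 0.25 at HH14 over HH12, against -0.07 for the 3995 on chromosomes 1 to 5. Their median deviation on the log2(CPM + 1) scale was 0.33, 0.20 and -0.15 in the HH14 libraries, against -0.29, -0.35, 0.26 and -0.14 in the HH12 libraries. The high libraries were those of sets 9235 and 9236, and within sets 9236 and 9846 the median difference of HH14 minus HH12 was -0.03 and -0.02. Chromosome W, carried by female birds only, gave 2573, 1090 and 613 counted reads in every 1000000 at HH14, against 868, 1023, 2485 and 1558 at HH12. Its 18 genes of at least 10 CPM differed by a median of -1.22 and -1.32 within the 2 sets, and the 410 such genes of chromosome Z by 0.47 and 0.24. Over all 7 libraries the stages overlapped for every 1 of the 43 tested genes of chromosome W. Mitochondrial genes took 4.41% to 5.97% of reads. The part of set and pool in the differences between stages was not tested beyond these values.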

How the data were processed

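Whole-number read counts per gene were deposited by the authors in a full table of 50 libraries and a filtered table of 42. Per the file headers they were made with featureCounts 1.6.2 over exons of the Ensembl release 99 annotation of GRCg6a, counting reverse-stranded reads. Per the submitters' processing notes, cutadapt 2.10, HISAT2 2.1.0 and SAMtools 1.9 were used. Its command has no setting for reads fitting several genes, and near-identical genes may be undercounted. Positions are 1-based, as in the deposited table.

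Groups came from the labels. Beyond the pool name in a title, nothing in the labels shows whether replicates were raised apart, and the p-values therefore rest on variation among the libraries, which may be technical. Within a stage, every 2 libraries differed beyond sampling noise (lowest chi-square per degree of freedom 8.31). Filtering by group with filterByExpr left 15737 of 24356 genes. The 42 libraries in 12 groups were fitted together (TMM, robust quasi-likelihood F test, edgeR 4.0.16, R 4.3.3; common dispersion 0.219), with Benjamini-Hochberg adjustment and a threshold of 0.05. The same fit gave the difference between the changes of the 2 populations. Levels are CPM on TMM-scaled library sizes, and log2(CPM + 1) was used for correlations and within-set differences. Ratios of means per gene were taken after adding 0.1 CPM, and those of the summed neighbouring genes with nothing added. The test was checked on simulated counts, drawn independently for each library with no effect of set or pool added. That check therefore does not cover such effects. Alternatives used DESeq2 1.42.0, limma 3.58.1, other filters, other library sets, the sequencing set as a term and the pool as a block.

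The libraries of one pool share a name in their titles. The pool was taken to pair GFP-negative and GFP-positive partners by this name. Deviations of partners from their group means correlated at 0.222, 0.370 and 0.563 at HH12 and at 0.421, 0.598 and 0.788 at HH14. Partners share a sequencing set as well, so these values cannot tell pairing by pool from a shared set. Between HH14 and HH12 GFP-negative libraries that share neither, such correlations ran from -0.70 to 0.58. Between the stages nothing pairs libraries but the sequencing set.

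Genes were to be named where they passed the test, reached 10 CPM in the higher stage, did not overlap and kept their sign in both shared sets. As none passed, those with the lowest unadjusted p were given, at most 2 in each direction because identifiers could not be paired with symbols: of 25635 reference rows, 0 hold an Ensembl identifier. The 29 gene lists and cell type markers prepared were therefore not used. The comparison, the lists and the rules were chosen with earlier results of these data known.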

Additional observations from a re-analysis of the deposited data

Results flagged for a closer look

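In 41 checks on groups of 4 or 5 libraries, 5 flagged a library far from the others by Dixon's criterion. For normally distributed values chance alone flags about 1 check in 20. The checks read several measures in the same libraries, so they are not independent, and levels in CPM are skewed. ENSGALG00000041161 was low in HH12 replicate 1, at 3.40 CPM, beside 4.31 to 4.50 CPM in the other HH12 libraries. The same gene was high in WE_16 replicate 1, at 102.8 CPM, beside at most 17.3 CPM in the other HH16 libraries. That HH16 library also stood apart for the neighbouring genes of chromosome 1 (10102 CPM in sum), of chromosome 14 (18873 CPM) and of chromosome Z (164.0 CPM). The HH14 group has 3 libraries, too few for this check, so the high values of HH14 replicate 2 in the same genes could not be put to it.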

How the results depend on the processing

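The count of genes called between HH14 and HH12 was 0 in each of 18 alternatives: DESeq2 size factors, the DESeq2 Wald test, limma voom, no filter, a filter of 1 CPM in 3 libraries, all 50 libraries, the compared groups alone, the sequencing set or the pool as a block, the 2 shared sets alone, each of the 7 libraries left out, and the 3 libraries with the fewest detected genes left out, the last chosen after seeing the data. With the sequencing set as a replicate block 0 genes passed (129 at an unadjusted p under 0.05), and with the pool as a random block 0 passed (230). The number at an unadjusted p under 0.05 ran from 103 without HH14 replicate 2 to 1356 without HH12 replicate 3, and the lowest adjusted p was 0.230. The 1356 were among 15711 genes tested, a share above 0.05. Without HH12 replicate 3 no HH12 library remained in sets 9235 and 9236, so stage and set cannot be told apart in that count. Across 25 alternatives the difference between the populations also gave 0 calls, 66 to 338 genes at an unadjusted p under 0.05, and 0 with the pool as a fixed block. The 4 named genes kept their direction in the 18 alternatives and passed in none. With the sequencing set as a term their log2 fold changes were smaller. They were 2.28 for ENSGALG00000039452, 2.1 for ENSGALG00000041161, -0.76 for ENSGALG00000036915 and -0.79 for ENSGALG00000009560, the last 2 less than 2-fold. The number of genes at least 2-fold apart by ratio of means, 118 higher and 33 lower, ranged from 63 to 601 and from 18 to 220 with 1 library left out. The genes called between HH16 and HH10 numbered 371 to 714 with 1 library left out. Depth limits genes under 10 CPM most, through the standard errors given above.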
